A study of Mus musculus with 2 samples.

Results

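The immediate early response genes examined here were Fos, Fosb, Jun, Junb, Egr1, Atf3, Ier2, Ier3, Dusp1 and Btg2, 10 of the 23997 gene rows of the deposited table. They were found by their symbols, and all 10 passed the minimum average of 0.5 FPKM (fragments per 1000000 fragments and per kilobase of transcript). Polyadenylated RNA had been sequenced from MHC class II-high medullary thymic epithelial cells (mTECs) sorted from pools of C57BL/6 mice. One library was labelled Aire-KO (genotype Aire-/-) and the other WT, and they are called the KO-labelled and the WT-labelled library. The sources used here do not give the number of mice per pool, age, sex or the allele.

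Immediate early genes are switched on within minutes of a stimulus without new protein synthesis, mostly through MAP kinases acting on transcription factors such as SRF with its ETS partners and CREB. Their mRNAs are short-lived, and many of their products either are transcription factors or damp the signal again. In tissues that are dissociated and sorted, they are also known for responding to the isolation itself. MHC class II-high mTECs express genes of many peripheral organs and present their products to maturing T cells, and Aire is the regulator that drives much of this expression.

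Each genotype had 1 library, so the spread between animals could not be measured, genotype could not be tested, and every difference below lacks a replicate check. Ratios are log2 of FPKM + 0.1, the KO-labelled library over the WT-labelled library. "Lower" and "higher" as counts mean at least 2-fold on this scale at a mean of 0.5 FPKM or more, a rule of size. Steps in the low FPKM values gave estimates of 55000000 fragments in the KO-labelled library and 47900000 in the WT-labelled library. The 10 genes rested on an estimated 1600 to 68500 fragments each, and intervals cover counting error only. Aire itself stood at 640.2 FPKM in the KO-labelled library and 220.6 FPKM in the WT-labelled library, so its transcript level does not check the label. The MHC class II gene H2-Aa stood at 11948 FPKM in the KO-labelled and 8398 FPKM in the WT-labelled library. Of 13 mTEC markers 0 were lower and 1, Aire, was higher, against 20.5% and 7.09% of all measured genes.

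Promoter sequence was read for the genes whose values the results turn on. RefSeq promoters of build GRCm38.p6, the same assembly as mm10, were matched by symbol for 8 of the 10 genes. The 200 bases before the transcription start are shown for Btg2 and Ier3, which were lower, and for Dusp1, Fos and Junb, which were not. Each reads 5′ to 3′ on the strand of its gene. Capitals mark the cyclic AMP response element core TGACG on either strand, and the full palindrome TGACGTCA where present. The Btg2 stretch is chr1:134079156-134079355 (minus strand), the Ier3 stretch chr17:35821513-35821712 (plus strand), the Dusp1 stretch chr17:26508473-26508672 (minus strand), the Fos stretch chr12:85473690-85473889 (plus strand) and the Junb stretch chr8:84978749-84978948 (minus strand).
Btg2: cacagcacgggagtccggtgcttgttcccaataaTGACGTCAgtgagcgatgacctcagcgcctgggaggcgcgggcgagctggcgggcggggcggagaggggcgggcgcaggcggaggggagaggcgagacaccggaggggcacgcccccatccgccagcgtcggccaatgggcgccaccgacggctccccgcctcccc
Ier3: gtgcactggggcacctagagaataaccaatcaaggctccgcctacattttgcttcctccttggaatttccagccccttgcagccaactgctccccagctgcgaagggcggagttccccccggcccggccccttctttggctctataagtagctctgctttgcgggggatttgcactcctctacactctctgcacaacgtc
Dusp1: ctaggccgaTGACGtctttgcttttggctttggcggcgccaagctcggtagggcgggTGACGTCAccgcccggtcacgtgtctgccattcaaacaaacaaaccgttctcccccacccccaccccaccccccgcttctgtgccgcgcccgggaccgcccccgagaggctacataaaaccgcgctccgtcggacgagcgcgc
Fos: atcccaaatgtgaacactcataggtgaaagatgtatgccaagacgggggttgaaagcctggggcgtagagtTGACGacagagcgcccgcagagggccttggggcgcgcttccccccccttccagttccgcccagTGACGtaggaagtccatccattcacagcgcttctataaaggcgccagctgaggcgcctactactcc
Junb: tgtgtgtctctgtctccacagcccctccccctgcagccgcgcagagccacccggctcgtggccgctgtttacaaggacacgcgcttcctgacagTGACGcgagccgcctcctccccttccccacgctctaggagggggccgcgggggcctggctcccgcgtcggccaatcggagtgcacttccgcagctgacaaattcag

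In the 250 bases before the start, TGACGTCA was found in 2 of the 8 promoters, those of Btg2 and Dusp1, against 1.55% of 32851 promoters. The match in Btg2 began 166 bases before the start and that in Dusp1 143 bases before the start. The core TGACG, which the palindrome contains, was found in 6 of the 8, in Btg2, Atf3, Fosb, Junb, Fos and Dusp1, against 17.8% of all promoters. The EGR motif GCGNGGGCG was found in 2, Btg2 and Fosb (4.7% of all promoters), and the TATA motif TATAAA, searched on the gene's strand, in 1, Fos (7.59%). A kappaB motif was found in 3, Fosb, Fos and Ier3 (3.9%). The AP-1 motif TGANTCA (6.75%) and the CArG box bound by SRF (1.47%) were found in 0 of the 8 windows, which says only that these letters are not in this window. All motifs but TATAAA were searched on both strands. The full palindrome was thus in the promoter of the gene with the lowest ratio and of one that was neither lower nor higher.

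Of the 10 genes, 2 were lower in the KO-labelled library, Btg2 and Ier3, 0 were higher and 8 were neither. Over all 15906 measured genes, 20.5% were lower and 7.09% higher. In the range from 30 to 1500 FPKM, which holds all 10, 9.94% of 3108 genes were lower and 7.24% higher. The share lower among the 10 was thus near the 20.5% over all genes and above the 9.94% of that range. Neither difference was tested. Of the 10, 8 had a log2 ratio below 0 and 2 had one above, and 7 lay within 1.5-fold. Their median log2 ratio was -0.23, against 0.05 over all genes and 0.18 over genes of 30 to 1500 FPKM.

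**Figure D1:**
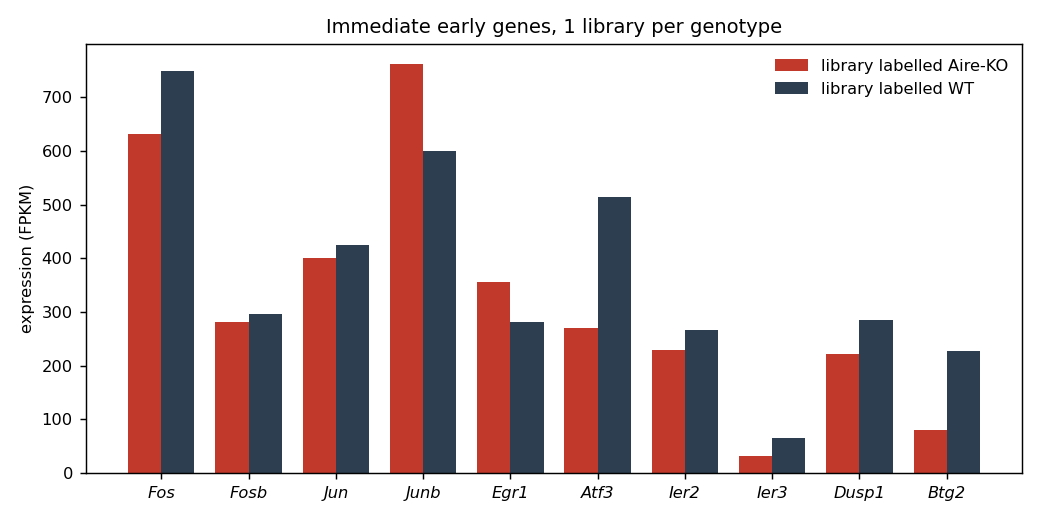
Expression in FPKM (vertical axis) of each immediate early gene in the KO-labelled library (left bar) and the WT-labelled library (right bar), 1 library each, so no error bar can be drawn. Junb and Egr1 were taller in the KO-labelled library, and the widest relative gaps are those of Btg2, at 79.9 FPKM in the KO-labelled and 226.5 FPKM in the WT-labelled library, Ier3, at 31.6 FPKM in the KO-labelled and 65.4 FPKM in the WT-labelled library, and Atf3, at 269.9 FPKM in the KO-labelled and 513.2 FPKM in the WT-labelled library.

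Most of the 10 were abundant transcripts. Their ranks ran from 75th to 2995th of 23992 genes in the KO-labelled library and from 69th to 1361st in the WT-labelled library. Ier3 was placed last of the 10 in both. Of the 10, 8 stood at 200 FPKM or more in the KO-labelled library and 9 in the WT-labelled library. Together they made up 0.591% of the summed FPKM of all genes in the KO-labelled library and 0.709% in the WT-labelled library. The order in the KO-labelled library, from high to low, was Junb, Fos, Jun, Egr1, Fosb, Atf3, Ier2, Dusp1, Btg2 and Ier3. In the WT-labelled library it was Fos, Junb, Atf3, Jun, Fosb, Dusp1, Egr1, Ier2, Btg2 and Ier3. Over the 10 genes the ranks of the levels had a Spearman rho of 0.84, a description of 2 libraries that share their annotation and transcript lengths. Which neighbours in either order differ beyond the spread between libraries could not be measured.

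Among the AP-1 subunits, Fos (chromosome 12, 85473901 to 85477270, mm10), which forms AP-1 only as a dimer with a JUN protein, stood at 630.9 FPKM in the KO-labelled library and 749.3 FPKM in the WT-labelled library. The log2 ratio was -0.25 (95% counting interval -0.26 to -0.23). Fos ranked 96th of 23992 genes in the KO-labelled library and 69th in the WT-labelled library. Its close relative Fosb (chromosome 7, 19302696 to 19310045) stood at 281.9 FPKM in the KO-labelled library and 296.8 FPKM in the WT-labelled library, a log2 ratio of -0.07 (-0.09 to -0.06). Both genes were nearly level, and Fosb per Fos was 0.447 in the KO-labelled and 0.396 in the WT-labelled library.

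Jun (chromosome 4, 95049036 to 95052222), which can also pair with itself, stood at 400.0 FPKM in the KO-labelled library and 424.8 FPKM in the WT-labelled library, a log2 ratio of -0.09 (-0.10 to -0.07). Junb (chromosome 8, 84976909 to 84978748), a weaker activator that can oppose Jun, stood at 761.1 FPKM in the KO-labelled library and 600.6 FPKM in the WT-labelled library. Its log2 ratio was 0.34 (0.32 to 0.36), and it was the most abundant of the 10 in the KO-labelled library. Junb per Jun was 1.9 in the KO-labelled and 1.41 in the WT-labelled library, and Junb per Fos 1.21 in the KO-labelled and 0.801 in the WT-labelled library. Such ratios within a library do not depend on the scaling between libraries.

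The 7 AP-1 subunits outside the 10 genes were less abundant than Fos, Fosb, Jun and Junb. Of these 7, 4 (57.1%) were lower and 0 higher, against 20.5% and 7.09% of all genes (median log2 ratio -1.06). The 4 lower genes stood below 30 FPKM in both libraries, and of all genes from 0.5 to 30 FPKM 23.1% were lower. Fosl1 stood at 2.52 FPKM in the KO-labelled library and 10.1 FPKM in the WT-labelled library, and Fosl2 at 14.0 FPKM in the KO-labelled and 29.2 FPKM in the WT-labelled library. The lower genes also included Batf2 (1.47 FPKM in the KO-labelled library and 5.33 FPKM in the WT-labelled library) and Jdp2, a JUN-binding repressor (6.56 FPKM in the KO-labelled and 14.7 FPKM in the WT-labelled library). Jund, the JUN gene least tied to stimulation, stood at 234.1 FPKM in the KO-labelled library and 174.0 FPKM in the WT-labelled library, and Batf3 at 28.2 FPKM in the KO-labelled and 16.4 FPKM in the WT-labelled library. Summed over the family, FOS genes came to 929.3 FPKM in the KO-labelled library and 1085 FPKM in the WT-labelled library, and JUN genes to 1395 FPKM in the KO-labelled and 1199 FPKM in the WT-labelled library. Fosl1 and Fosl2 made up 0.271% and 1.5% of the FOS sum in the KO-labelled library, against 0.926% and 2.69% in the WT-labelled library. Junb made up 54.6% of the JUN sum in the KO-labelled library and 50.1% in the WT-labelled library, and Jun 28.7% in the KO-labelled library and 35.4% in the WT-labelled library.

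**Figure D2:**
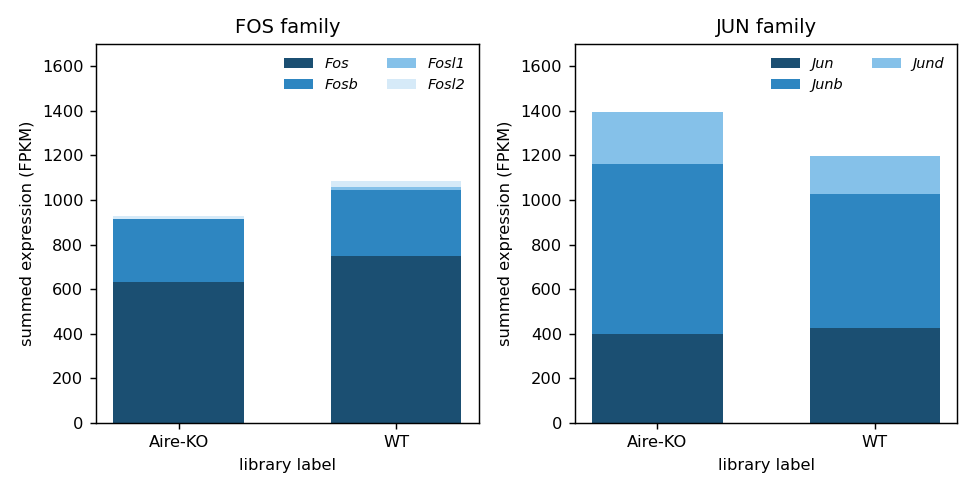
Summed expression in FPKM (vertical axis) of the FOS family (left panel) and the JUN family (right panel) in the KO-labelled and WT-labelled libraries, with each gene as a stacked segment and 1 library per bar. The FOS sum was 929.3 FPKM in the KO-labelled library and 1085 FPKM in the WT-labelled library, and the JUN sum 1395 FPKM in the KO-labelled and 1199 FPKM in the WT-labelled library.

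Of the transcription factor genes outside AP-1's core, both were neither lower nor higher by the 2-fold rule. Egr1 (chromosome 18, 34861207 to 34864956), a zinc finger factor induced through SRF, stood at 355.9 FPKM in the KO-labelled library and 281.7 FPKM in the WT-labelled library. Its log2 ratio was 0.34 (0.32 to 0.36), beside the same value for Junb. Atf3 (chromosome 1, 191170297 to 191183333), a stress-induced member of the ATF and CREB family that can pair with JUN proteins, stood at 269.9 FPKM in the KO-labelled library and 513.2 FPKM in the WT-labelled library. Its log2 ratio was -0.93 (-0.95 to -0.90). Atf3 per Fos was 0.428 in the KO-labelled and 0.685 in the WT-labelled library. Of the 10 other genes of the ATF and CREB family 0 were lower and 1 (10%) was higher, against 20.5% and 7.09% of all genes (median log2 ratio -0.12). The higher one was Creb1 (12.4 FPKM in the KO-labelled library and 4.98 FPKM in the WT-labelled library). Atf4, the most abundant of these 10 other genes, stood at 233.8 FPKM in the KO-labelled library and 255.2 FPKM in the WT-labelled library. Atf5 stood at 172.6 FPKM in the KO-labelled and 86.6 FPKM in the WT-labelled library. Of the corepressor genes that act on EGR proteins, Nab2 stood at 6.61 FPKM in the KO-labelled library and 9.14 FPKM in the WT-labelled library, and Nab1 at 6.58 FPKM in the KO-labelled and 8.13 FPKM in the WT-labelled library.

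Btg2 (chromosome 1, 134074865 to 134079155), an antiproliferative gene and a known p53 target whose protein recruits the CCR4-NOT deadenylase, had the lowest ratio of the 10. It stood at 79.9 FPKM in the KO-labelled library and 226.5 FPKM in the WT-labelled library, with log2 -1.50 (-1.53 to -1.47). A lower ratio was found in 6.72% of genes from 30 to 1500 FPKM. It ranked 1169th in the KO-labelled library and 347th in the WT-labelled library. Btg2 per Fos was 0.127 in the KO-labelled and 0.302 in the WT-labelled library, and Btg2 per Egr1 0.225 in the KO-labelled and 0.804 in the WT-labelled library. Of 8 measured genes of the BTG, TOB and CCR4-NOT list, 1 (12.5%) was lower and 0 were higher, against 20.5% and 7.09% of all genes. The lower one was the related antiproliferative gene Tob1 (54.9 FPKM in the KO-labelled library and 131.0 FPKM in the WT-labelled library). Btg1, the closest relative of Btg2, stood at 48.5 FPKM in the KO-labelled library and 89.3 FPKM in the WT-labelled library.

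Ier3 (chromosome 17, 35821713 to 35822911), whose product is linked to survival and to NF-kappaB and ERK signalling, was the least abundant of the 10. It stood at 31.6 FPKM in the KO-labelled library and 65.4 FPKM in the WT-labelled library, a log2 ratio of -1.05. Its counting interval of -1.14 to -0.96 spans the 2-fold mark, so counting error alone does not settle on which side it lies. Ier2 (chromosome 8, 84661331 to 84662852), a nuclear protein gene that shares the naming and not the sequence family of Ier3, stood at 229.3 FPKM in the KO-labelled library and 267.1 FPKM in the WT-labelled library, a log2 ratio of -0.22 (-0.25 to -0.19). Dusp1 (chromosome 17, 26505591 to 26508472), a phosphatase that switches off p38, JNK and ERK, stood at 221.5 FPKM in the KO-labelled library and 285.8 FPKM in the WT-labelled library, a log2 ratio of -0.37 (-0.39 to -0.34). Ier3 per Ier2 was 0.138 in the KO-labelled and 0.245 in the WT-labelled library, and Dusp1 per Fos 0.351 in the KO-labelled and 0.381 in the WT-labelled library.

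**Figure D3:**
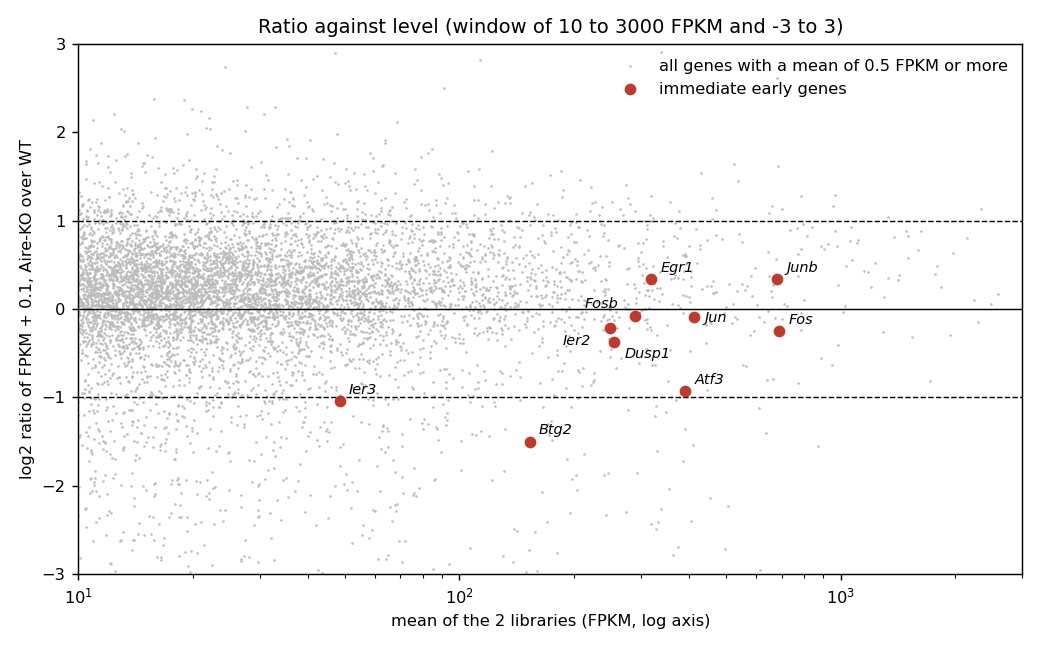
Log2 ratio of FPKM + 0.1, Aire-KO over WT (vertical axis), against the mean FPKM of the 2 libraries (horizontal log axis), for all measured genes in the window (grey points) and the 10 immediate early genes (red, labelled), with dashed lines at 2-fold. Btg2 and Ier3 lie below the lower line at -1.50 and -1.05, Atf3 just above it at -0.93, and the other genes lie between -0.37 and 0.34.

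The authors' deposited table gave q-values of 0.586 for Btg2, 0.756 for Ier3 and 0.795 for Atf3, and 0.999 for each of the other genes. Those values compare 2 libraries and not 2 genotypes.

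Gene structure was not used to choose the 10 genes. Each had 1 isoform in the deposited isoform table, as did 79% of all gene symbols there, and 0 of the 10 loci overlapped another row of the gene table. In GENCODE release M21, 3 had a single exon (Jun, Junb and Ier2), 2 had 2 exons (Ier3 and Btg2), 1 had 3 (Egr1) and 4 had 4. The pentamer ATTTA, the core of the AU-rich elements that mark mRNAs for rapid decay, was counted in the annotated 3′ untranslated regions. At least 2 copies were found in 8 of the 10, against 41.2% of 27084 transcripts of the isoform table. The exceptions were Fosb with 1 copy and Ier2 with 0. The median density was 2.89 copies per 1000 bases in the 10 and 1.04 over all transcripts. Ier3 had the highest density, 8.16, and Btg2 had 2.27, whereas Dusp1, which was neither lower nor higher, had 5.8. The longer motif TTATTTATT, which contains ATTTA, was found in Fos and Dusp1, against 6.36% of all transcripts.

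Of 8 genes for proteins that bind AU-rich elements, 0 were lower and 0 higher, against 20.5% and 7.09% of all genes. Their median log2 ratio was 0.61, against 0.05 over all genes and 0.18 over genes of 30 to 1500 FPKM. Zfp36, itself an immediate early gene and the decay factor for many of these mRNAs, stood at 691.3 FPKM in the KO-labelled library and 629.1 FPKM in the WT-labelled library. Zfp36l1 stood at 43.4 FPKM in the KO-labelled library and 28.9 FPKM in the WT-labelled library.

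Of the kinases and factors upstream of the 10 genes, the MAP kinase and SRF lists are set beside a median log2 ratio of 0.05 over all genes. Creb1, given above, stood at 12.4 FPKM in the KO-labelled and 4.98 FPKM in the WT-labelled library. It was the 1 higher gene of 10 in the ATF and CREB list (10%, against 7.09% of all genes). Of 20 genes of the MAP kinase cascade 1 was lower (5%, against 20.5% of all genes) and 0 higher (median log2 ratio 0.08). The lower one was Rps6ka5, a nuclear kinase that acts on CREB, at 0.923 FPKM in the KO-labelled library and 2.15 FPKM in the WT-labelled library. Mapk3, which encodes ERK1, stood at 64.5 FPKM in the KO-labelled library and 120.0 FPKM in the WT-labelled library. Of SRF and 5 partner genes 0 were lower and 0 higher, against 20.5% and 7.09% of all genes (median 0.23). Srf stood at 25.7 FPKM in the KO-labelled library and 30.1 FPKM in the WT-labelled library. Elk3 stood at 9.96 FPKM in the KO-labelled and 8.27 FPKM in the WT-labelled library.

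Early response genes outside the 10 were taken from 4 lists. Over these lists of other AP-1 subunits, early transcription factors, early effectors and feedback inhibitors, 32 of 77 genes (41.6%) were lower and 2 (2.6%) higher, with a median log2 ratio of -0.59. Of their 41 genes in the band from 30 to 1500 FPKM, 13 (31.7%) were lower, against 9.94% of all genes in that band. Of the 36 below 30 FPKM, 19 (52.8%) were lower, against 23.1% of all genes from 0.5 to 30 FPKM. These lists were chosen with earlier results of these data known, and whether they differ from other genes was not tested.

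Early effector genes had the lowest median of these 4 lists (-1.25). Of the 30, 16 (53.3%) were lower and 0 higher, against 20.5% and 7.09% of all genes. The list summed to 3924 FPKM in the KO-labelled library and 4277 FPKM in the WT-labelled library. Ereg, which encodes a ligand of the EGF receptor, stood at 0.0651 FPKM in the KO-labelled library and 2.54 FPKM in the WT-labelled library, and the related ligand gene Areg at 2.62 FPKM in the KO-labelled and 30.9 FPKM in the WT-labelled library. The value of Ereg in the KO-labelled library is near the 0.0305 FPKM that a count of 0 allows for a transcript of 2000 bases (3 counts). The stress-linked kinase gene Plk3 stood at 5.21 FPKM in the KO-labelled library and 35.8 FPKM in the WT-labelled library, and the kinase gene Sgk1 at 16.4 FPKM in the KO-labelled and 99.1 FPKM in the WT-labelled library. Hbegf, which encodes another EGF receptor ligand and was named after its value was seen, stood at 6.26 FPKM in the KO-labelled library and 32.3 FPKM in the WT-labelled library. Among the most abundant effectors, Nfkbia, the NF-kappaB inhibitor gene, stood at 1364 FPKM in the KO-labelled library and 1238 FPKM in the WT-labelled library. Gadd45b (322.7 FPKM in the KO-labelled and 234.2 FPKM in the WT-labelled library) also stood higher in the KO-labelled library without passing 2-fold. So did Ptgs2 (270.3 FPKM in the KO-labelled and 191.2 FPKM in the WT-labelled library), and both were named after their values were seen.

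Of 26 other early transcription factors 8 (30.8%) were lower and 1 (3.85%) higher, against 20.5% and 7.09% of all genes (median log2 ratio -0.29). The orphan nuclear receptor gene Nr4a3 stood at 1.95 FPKM in the KO-labelled library and 7.8 FPKM in the WT-labelled library, and Egr4 at 0.898 FPKM in the KO-labelled and 2.26 FPKM in the WT-labelled library. Id3, an inhibitor of helix-loop-helix factors, stood at 58.6 FPKM in the KO-labelled library and 156.8 FPKM in the WT-labelled library, and the epithelial factor gene Klf4 at 48.1 FPKM in the KO-labelled and 113.7 FPKM in the WT-labelled library. Bhlhe40, a transcriptional repressor gene, was the higher one, at 88.1 FPKM in the KO-labelled library and 41.7 FPKM in the WT-labelled library. The most abundant 2 were Klf6, at 390.4 FPKM in the KO-labelled and 225.7 FPKM in the WT-labelled library, and Irf1, at 183.1 FPKM in the KO-labelled and 215.6 FPKM in the WT-labelled library.

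Of 14 relatives of Dusp1 and other inhibitors of the cascade, 4 (28.6%) were lower and 1 (7.14%) higher, near the 20.5% and 7.09% over all genes (median log2 ratio -0.28). Dusp5, a nuclear ERK phosphatase, stood at 5.66 FPKM in the KO-labelled library and 32.8 FPKM in the WT-labelled library. Dusp2 stood at 1.49 FPKM in the KO-labelled library and 7.11 FPKM in the WT-labelled library, Dusp8 at 2.07 FPKM in the KO-labelled and 6.85 FPKM in the WT-labelled library, and Dusp14 at 17.1 FPKM in the KO-labelled and 50.6 FPKM in the WT-labelled library. Spry2, a feedback inhibitor of receptor tyrosine kinases, went the other way, at 37.2 FPKM in the KO-labelled library and 10.6 FPKM in the WT-labelled library. The phosphatase genes Dusp4 (144.2 FPKM in the KO-labelled library and 126.8 FPKM in the WT-labelled library) and Dusp16 (62.8 FPKM in the KO-labelled and 41.2 FPKM in the WT-labelled library) were neither.

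**Figure D4:**
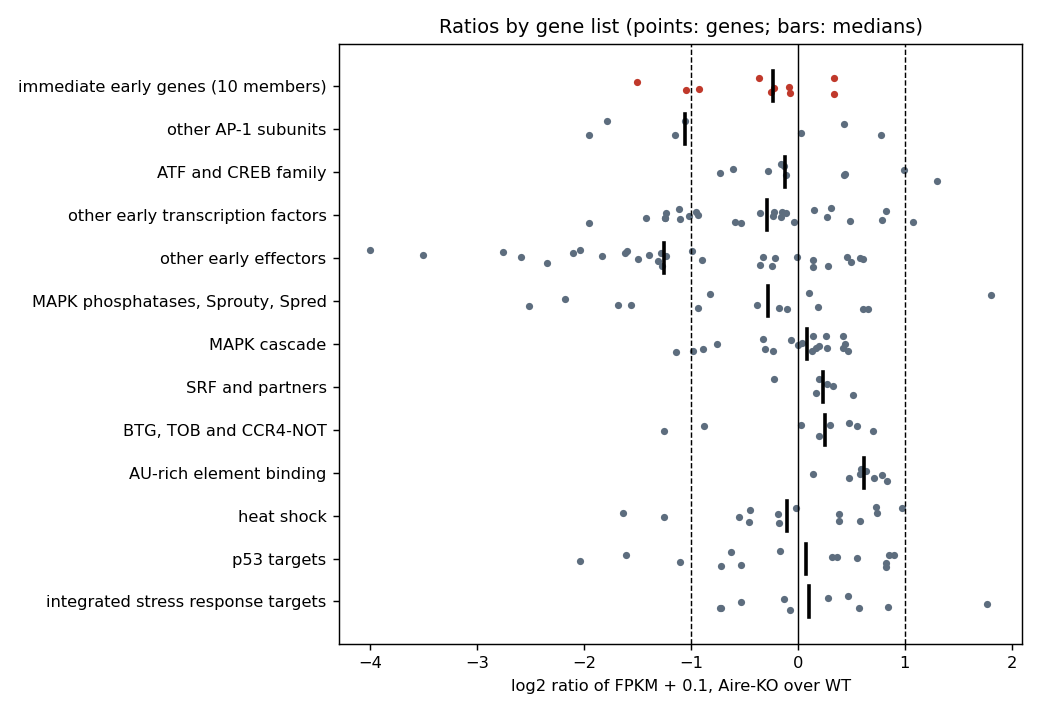
Log2 ratio of FPKM + 0.1, Aire-KO over WT (horizontal axis), of each measured gene (points) in each list (rows), with black bars at the medians and dashed lines at 2-fold. The 10 immediate early genes have a median of -0.23, early effectors of -1.25 and proteins that bind AU-rich elements of 0.61.

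Markers of other cells that the sort could hold differed between the libraries too. Of 10 measured dendritic cell and macrophage markers 6 (60%) were lower and 0 higher, against 20.5% and 7.09% of all genes. The list had a median log2 ratio of -1.22. The macrophage markers Itgam (0.614 FPKM in the KO-labelled library and 9.4 FPKM in the WT-labelled library) and Emr1 (0.312 FPKM in the KO-labelled and 4.63 FPKM in the WT-labelled library) and the myeloid adaptor gene Tyrobp (3.35 FPKM in the KO-labelled and 20.2 FPKM in the WT-labelled library) had the lowest ratios, and all 3 were named after their values were seen. The most abundant markers were Lyz2, at 436.4 FPKM in the KO-labelled library and 675.5 FPKM in the WT-labelled library, and Fcer1g, at 87.2 FPKM in the KO-labelled and 60.2 FPKM in the WT-labelled library. Like Fcer1g, Cd68 stood higher in the KO-labelled library, at 33.1 FPKM against 24.1 FPKM in the WT-labelled library. So did Zbtb46, at 15.0 FPKM in the KO-labelled and 9.13 FPKM in the WT-labelled library. Neither passed 2-fold, and both were named after their values were seen. The 12 markers summed to 580.0 FPKM in the KO-labelled library and 814.2 FPKM in the WT-labelled library, and single markers ranged from 0.058 to 436.4 FPKM in the KO-labelled library and from 0.115 to 675.5 FPKM in the WT-labelled library.

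The other marker lists had sums carried by 1 or 2 genes and medians below 0. Their counts stand beside 20.5% lower and 7.09% higher over all genes. Thymocyte markers (12, of which 10 measured) summed to 97.9 FPKM in the KO-labelled and 71.5 FPKM in the WT-labelled library, with 2 lower, 1 higher and a median of -0.20. Most of that sum was Tcf7 (51.6 FPKM in the KO-labelled and 21.6 FPKM in the WT-labelled library) and Thy1 (25.6 FPKM in the KO-labelled and 16.4 FPKM in the WT-labelled library). B cell markers (6) summed to 42.8 FPKM in the KO-labelled and 46.3 FPKM in the WT-labelled library, mostly Cd79b, with 2 lower, 1 higher and a median of -0.19. Fibroblast and endothelial markers (10, of which 8 measured) summed to 117.7 FPKM in the KO-labelled and 77.2 FPKM in the WT-labelled library, with 2 lower, 1 higher and a median of -0.51. Dcn alone stood at 85.9 FPKM in the KO-labelled library and 34.5 FPKM in the WT-labelled library, and the lower ones were the endothelial markers Cdh5 and Pecam1. Cortical epithelial markers (7) summed to 919.5 FPKM in the KO-labelled and 641.4 FPKM in the WT-labelled library, with 1 lower, 0 higher and a median of -0.19. Most of that sum was Ccl25 (809.2 FPKM in the KO-labelled and 546.4 FPKM in the WT-labelled library). Psmb11 was the least abundant of the list, at 1.52 FPKM in the KO-labelled and 2.05 FPKM in the WT-labelled library. Whether Ccl25 came from cortical cells was not tested. In these lists 0 markers were listed at 0 in both libraries. The part of these cells in the ratios of Btg2, Ier3 and the other early genes was not tested. Fewer cells of a type, less RNA per cell and expression of a marker by the mTECs themselves cannot be told apart in such libraries.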

How the data were processed

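The deposited gene and isoform tables hold FPKM values made by the authors with TopHat2 and Cuffdiff on build mm10, per the submitters' processing notes; versions, the annotation, strand setting and library scaling are not stated there. The authors' p-values and q-values, deposited in the same tables, compare 2 libraries and are quoted only as such. Rows of status HIDATA (5 genes) were treated as missing. Ratios were log2((Aire-KO FPKM + 0.1)/(WT FPKM + 0.1)), and 2-fold at a mean of 0.5 FPKM or more was the rule of size. The pseudocount understates changes of low genes, and FPKM moves with the make-up of each library.

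Depth was estimated from 1-isoform genes with transcripts of 2000 bases or more (GENCODE M21 lengths through RefSeq links). A step and an effective length (length less 210 and 200 bases for Aire-KO and WT) were fitted so that low values fell on whole fragments. Of 462 and 190 values up to 5 fragments, 78.6% and 76.8% lay within 0.1 of a whole number, shares that do not test the fit. Intervals are exact conditional binomial 95% intervals of the log2 FPKM ratio without pseudocount. They leave out all but counting error, and fragments were not tied to molecules by identifiers. Computation used Python 3.11.15, pandas 2.3.3, NumPy 2.4.6 and SciPy 1.17.1, and the depth fit, calls and intervals were tested on simulated data. Start coordinates were shifted by 1 to count from 1.

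The members and gene lists were chosen with earlier results of these data known. The band of 30 to 1500 FPKM and the pooling of 4 lists were chosen after seeing the data. Named genes were all members and Aire, and in each related list up to 4 lower and 4 higher genes by size of ratio and the 2 most abundant, or in cell type lists the 2 most abundant. A gene that this rule names is not reported here. With 2 libraries, no gene was named for a pattern like that of a member.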

Additional observations from a re-analysis of the deposited data

How the results depend on the processing

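Btg2 and Ier3 were the 2 lower genes with pseudocounts of 0.01 and 1 FPKM, no minimum or a mean of 2 FPKM or more, summed isoforms, a median ratio scaled to 0, and (added after seeing the data) without rows of status FAIL. Atf3 joined them with libraries scaled to the same upper quartile and under a 1.5-fold rule (3 lower). Under a 4-fold rule 0 members were lower. No member was higher in any of these settings. Where Atf3 joined, lower calls over all genes also rose, from 3260 to 3571 with the upper quartile scaled and to 4261 at 1.5-fold. Whether the gain of Atf3 differs from that rise was not tested. The members' median of -0.23 was -0.29 with the median ratio of all genes scaled to 0 and -0.40 with the upper quartile scaled, which put the median of all genes at -0.11 in place of 0.05. No member's ratio changed sign in either scaling, whereas the MAP kinase, p53 and integrated stress medians were -0.08, -0.09 and -0.06 with the upper quartile scaled. Over all genes, 3260 lower became 5180 without a minimum, 1804 at a mean of 2 FPKM and 1893 at 4-fold. The 1128 higher became 701 with a pseudocount of 1 FPKM, 725 with the upper quartile scaled, 3065 at 1.5-fold and 100 at 4-fold. No replicate could be left out. No paired analysis was possible because each genotype has 1 library.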

Other observations

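Stress programmes that share inputs with the immediate early genes were described with the same rule. The lists share some genes. Plk2 was counted among the p53 targets and the early effectors. Ppp1r15a was counted among the integrated stress response targets and the early effectors. Of 14 heat shock genes 2 were lower (14.3%, against 20.5% of all genes) and 0 higher (median log2 ratio -0.10). The small heat shock protein gene Hspb1 stood at 103.3 FPKM in the KO-labelled library and 321.7 FPKM in the WT-labelled library, and Dnajb4 at 8.44 FPKM in the KO-labelled and 20.3 FPKM in the WT-labelled library. The inducible chaperone gene Hspa1b stood at 328.6 FPKM in the KO-labelled library and 372.1 FPKM in the WT-labelled library, and the constitutive Hsp90ab1 at 1799 FPKM in the KO-labelled and 1203 FPKM in the WT-labelled library. Hspa1b shares reads with its near-identical copy Hspa1a, so its value depends on how the authors' tool split them.

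Of 14 p53 target genes 3 were lower (21.4%, near the 20.5% of all genes) and 0 higher (median log2 ratio 0.08). These were the polo-like kinase gene Plk2 (19.7 FPKM in the KO-labelled library and 81.5 FPKM in the WT-labelled library), the apoptosis gene Pmaip1 (44.0 FPKM in the KO-labelled and 134.8 FPKM in the WT-labelled library) and the cell cycle inhibitor gene Cdkn1a (105.2 FPKM in the KO-labelled and 226.4 FPKM in the WT-labelled library). Bax, another apoptosis gene, stood at 279.0 FPKM in the KO-labelled library and 157.8 FPKM in the WT-labelled library. Of 10 integrated stress response targets 0 were lower and 1 (10%) was higher, against 7.09% higher over all genes (median 0.11). The higher one was the serine synthesis gene Phgdh, at 127.6 FPKM in the KO-labelled library and 37.4 FPKM in the WT-labelled library. Ppp1r15a, which reverses the integrated stress response, stood at 302.7 FPKM in the KO-labelled library and 248.7 FPKM in the WT-labelled library.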
